A study of Homo sapiens with 30 samples.

Results

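The interferon regulatory factors (IRFs) are a family of DNA-binding transcription factors, and 8 of their genes, IRF1, IRF2, IRF3, IRF4, IRF5, IRF7, IRF8 and IRF9, were read by symbol from tables of 61471 genes in U87 and U251 cells. U87-MG and U251-MG are established human glioblastoma cell lines, both wild type by their labels, and the RNA of whole cultures was sequenced from untreated cells (Untreated, labelled as collected on day 3), after 3, 14 and 28 days of interferon-γ (D3, D14 and D28), and on day 28 after IFN-γ had been taken away following day 14 (D28WO). U251 had 3 libraries in each group, and U87 had 3 in Untreated, D28 and D28WO and 2 in D3 and D14, because 2 U87 columns with an identical name were left out. The labels call the libraries biological replicates, and the groups were taken from the labels alone. The methods state that both lines are listed as commonly misidentified and were not re-authenticated, the sources differ on the IFN-γ dose, and the methods give the untreated collection as the start of the course rather than day 3.

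IFN-γ binds its receptor and activates receptor-bound JAK kinases, and the signal reaches GAS elements (gamma-activated sites) in promoters, that of IRF1 among them. IRF1 then activates genes through interferon-stimulated response elements (ISRE), at which IRF2 can bind in its place and mostly represses, and IRF9 is the DNA-binding subunit of the complex ISGF3, which holds STAT2 and binds the ISRE as well. IRF3, IRF5 and IRF7 lie dormant until sensors of foreign nucleic acid cause their phosphorylation and then drive interferon genes, and IRF4 and IRF8 act mainly in lymphoid and myeloid cells.

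Promoter sequence of IRF1 and IRF9, the members called in both lines, is shown because both hold the GAS letters. RefSeq promoter windows (GRCh38.p14, 250 bases before to 50 after a transcription start) were given for 5 of the 8 members: IRF1, IRF4, IRF5, IRF8 and IRF9. The letters TTCNNNGAA, which read the same on both strands, were found in the windows of IRF1 and IRF9 and in those of no other of the 5, and in a window of 9.38% of all 27305 genes that have one. The ISRE letters, GAAA and GAAA with any 2 bases between them, were searched on both strands, were counted apart from the GAS letters, with which they can overlap, and were in the window of none of the 5 members and of 4.38% of all these genes. The stretch from 250 to 51 bases before the start is given for IRF1, and the match with 10 bases on each side for IRF9, with the GAS letters in capitals. They lie 124 to 116 bases before the start in IRF1 and 63 to 55 before it in IRF9.
IRF1, chr5:132490824-132491023, minus strand: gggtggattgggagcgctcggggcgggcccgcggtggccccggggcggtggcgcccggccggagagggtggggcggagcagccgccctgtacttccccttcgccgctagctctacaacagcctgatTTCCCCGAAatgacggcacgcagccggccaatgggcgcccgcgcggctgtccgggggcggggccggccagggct
IRF9, chr14:24161192-24161220, plus strand: accacgtgatTTCTGGGAAaaggccctcc
In the annotation of GENCODE release 44 on GRCh38, IRF1 lies on chromosome 5 from 132440440 to 132508719 on the minus strand and IRF9 on chromosome 14 from 24161234 to 24168043 on the plus strand. The IRF1 stretch lies inside the annotated span of IRF1 and of the opposite-strand gene ENSG00000283782, and overlaps no annotated exon. The IRF9 stretch lies before the first exon of IRF9, inside an untranslated exon of the read-through gene ENSG00000259529.

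The ISRE letters were found instead in genes downstream of the family. Of 13 known target genes of IRF1, 7 had a window and 6 of these held the ISRE letters, and of 16 known target genes of ISGF3, 12 had a window and 10 held them, beside 4.38% of all 27305 genes with a window. The match with 10 bases on each side, with the ISRE letters or their reverse complement in capitals, is shown for 2 genes of each list that are followed below.
GBP1, chr1:89065316-89065345, minus strand: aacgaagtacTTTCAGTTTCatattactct
CXCL10, chr4:76023699-76023728, minus strand: tcatgttttgGAAAGTGAAAcctaattcac
IFIT1, chr10:89392497-89392526, plus strand: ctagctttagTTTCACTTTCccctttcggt
RSAD2, chr2:6877622-6877651, plus strand: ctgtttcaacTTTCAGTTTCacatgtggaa
A match of letters describes these windows and is not evidence that a factor was bound.

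All values are TPM (a level scaled to transcript length and to a fixed library total), and each deposited library summed to 1000000. Differences were tested with limma on log2(TPM + 1), in 1 fit for each line that held its 5 groups, over 22918 genes in U87 and 23667 in U251 with a mean of at least 0.5 TPM, of which the members were 6 in each line. A gene is called higher or lower where its Benjamini-Hochberg adjusted p is under 0.05 and its log2 fold change is beyond 1 in size. IRF4 and IRF8 were below the filter in both lines. Relative to Untreated, the median gene was shifted by 0.15 to 0.25 on the log2 scale in U87 and by 0.02 to 0.16 in U251, and fold changes are given without subtracting that shift. Levels of the 2 lines are set side by side but were not tested against each other, because their tables were normalized separately. In bulk RNA a lower level in fewer cells cannot be told apart from less RNA in every cell.

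IRF1, IRF9, IRF7 and IRF5 rose in U87 cells at D3, did not pass the test against Untreated in the D14 libraries, and were high again at D28 and at D28WO. At D3 these 4 of the 6 tested members were called higher, where 5.85% of all genes tested were called higher, and at D14 none was called in either direction, where 1.89% of all genes were called higher and 0.209% lower. At D28 and at D28WO the same 4 were called, beside 6.77% and 12.8% of all genes. Under quantile normalization 2 members were called at D3 and 1 at D28. Over all 22918 genes, calls in either direction also fell with it, from 1428 to 822 at D3 and from 1692 to 1052 at D28. By the adjusted p alone, all 6 members passed at D3 (12.4% of all genes higher), 5 at D28 (17.2%) and 6 at D28WO (28.6%), and none at D14 (4.14% higher, 1.02% lower). In U251 cells IRF1 and IRF9 were called higher at each of the 4 times, where the share of all genes called higher was 9.72%, 4.72%, 11.9% and 4.07% in the order of the groups, and no other member was called.

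**Figure D1:**
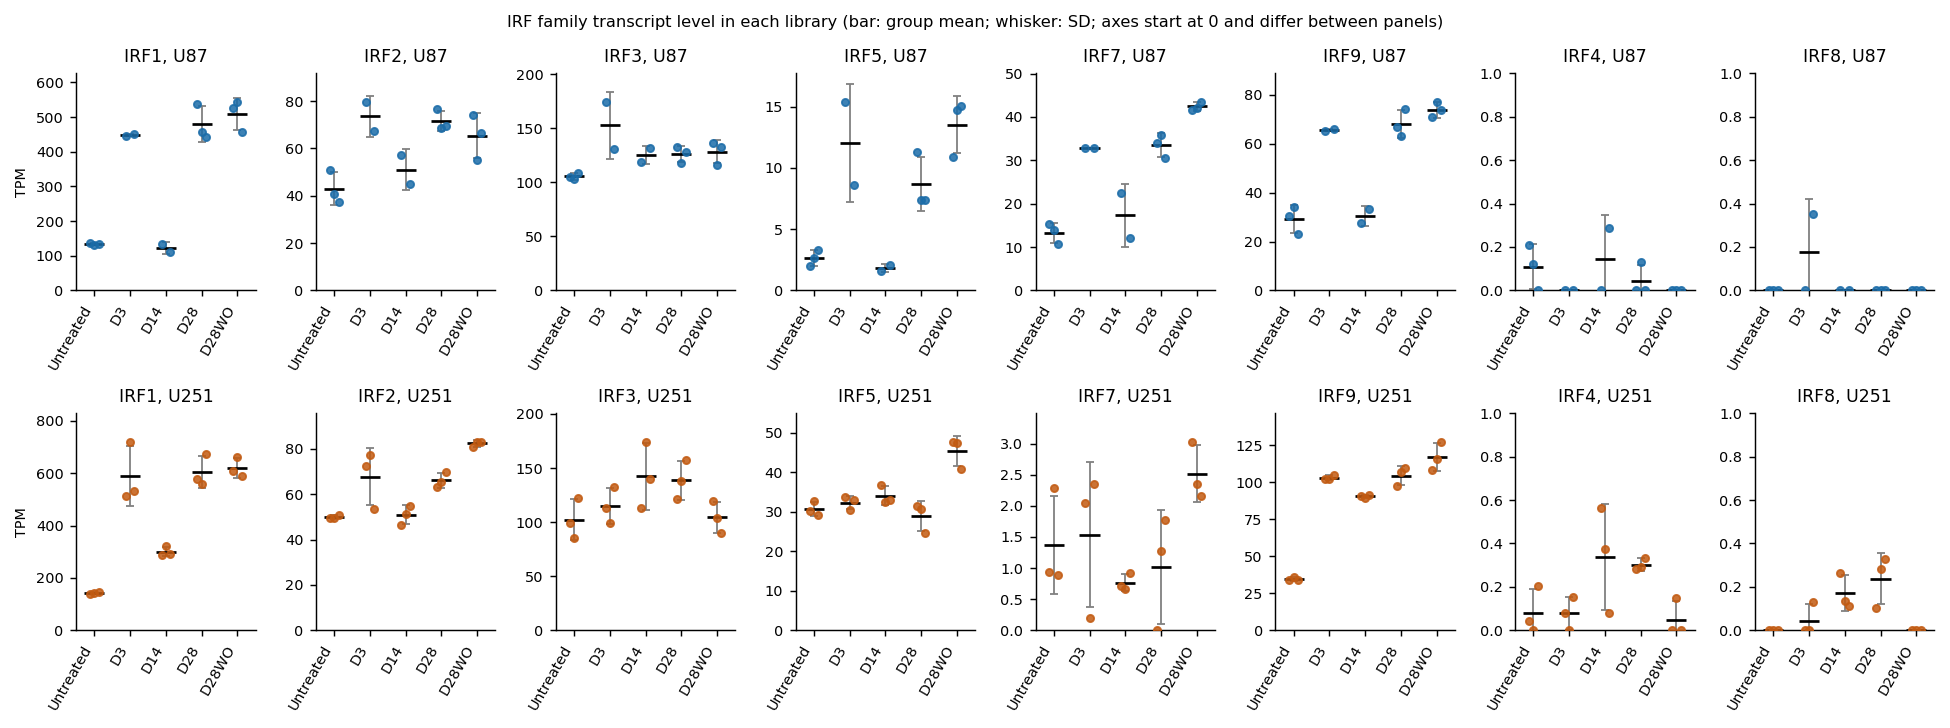
Level of each IRF gene in TPM (vertical axis, from 0, scaled for each panel) by group (horizontal axis) in U87 (upper row) and U251 (lower row), with 1 point a library, the group mean as a bar and the SD as a whisker. The 2 D14 libraries of U87 lie with the untreated libraries for IRF1, IRF5 and IRF9, whereas IRF9 of U251 stays between 89.02 and 91.3 TPM at D14.

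IRF1, an activator that IFN-γ induces directly, had the highest mean of the members in every group of both lines except U87 at D14, where IRF3 was at 125 ± 9 TPM and IRF1 at 122 ± 17 TPM (SD, n = 2). In U87 its level was 136, 130 and 134 TPM in the untreated libraries and 445 and 450 TPM at D3. It was 134 and 110 TPM at D14, 539, 457 and 443 TPM at D28, and 527, 545 and 457 TPM at D28WO. The D14 libraries overlapped the untreated ones, and all libraries of the other treated groups lay above both. The log2 fold change against Untreated was 1.74 ± 0.11 (SE, limma adjusted p = 1.05e-06) at D3, -0.13 ± 0.11 (adjusted p = 0.488) at D14, 1.84 ± 0.09 (adjusted p = 1.69e-07) at D28 and 1.93 ± 0.09 (adjusted p = 8.76e-08) at D28WO.

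In U251, IRF1 started from 137, 142 and 145 TPM and reached 514, 721 and 533 TPM at D3. At D14 its level was 287, 321 and 292 TPM, between the untreated and the D3 libraries without overlap with either. It was 577, 558.9 and 674 TPM at D28 and 609, 663 and 588 TPM at D28WO, and these groups overlapped with each other and with D3. Against Untreated the log2 fold change was 2.04 ± 0.11 at D3 (limma adjusted p = 5.49e-09) and 1.08 ± 0.11 at D14 (adjusted p = 1.24e-05), the latter 0.99 ± 0.12 and no longer past the fold limit with median-ratio size factors. Between D3 and D14 it decreased by 0.95 on the log2 scale (adjusted p = 2.66e-05), just inside the fold limit, and leaving out D3 replicate 1, D3 replicate 3 or D14 replicate 2 moved it to between 1.00 and 1.04 lower and past the limit.

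Reads of IRF1 could be shared with its antisense gene IRF1-AS1, which overlaps it over 48263 bases and whose TPM moved the same way, and with the opposite-strand gene ENSG00000283782, which overlaps it over 68280 bases at a mean of 13.2 TPM in U87 and 12.7 TPM in U251. IRF1-AS1 rose from 6.46 ± 0.48 TPM (SD, n = 3) in untreated U87 cells to 45.6 ± 5.5 TPM (n = 2) at D3, was 11.2 ± 5.8 TPM (n = 2) at D14, and reached 70.6 ± 7.9 TPM (n = 3) at D28WO. In U251 it rose from 17.5 ± 3.2 TPM (n = 3) to 69.7 ± 6.9 TPM at D3, was 30.8 ± 6.3 TPM at D14 and reached 94.0 ± 10.1 TPM at D28WO. IRF1 was on average 6.63 to 20.7 times as abundant as IRF1-AS1 in every group, and whether the counting used strand is not given in the sources used here.

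IRF9, the DNA-binding subunit of ISGF3, was called higher than untreated at D3, D28 and D28WO in U87 and at all 4 times in U251. In U87 it was 30.5, 34.2 and 22.9 TPM untreated, 65.3 and 66.1 TPM at D3, 27.7 and 33.4 TPM at D14, 66.9, 63.3 and 74.4 TPM at D28, and 70.9, 77.3 and 73.8 TPM at D28WO. All libraries of D3, D28 and D28WO lay above all libraries of Untreated and D14. The log2 fold changes against Untreated were 1.16 ± 0.15 at D3 (limma adjusted p = 0.000362), 0.08 ± 0.15 at D14 (adjusted p = 0.812), 1.21 ± 0.13 at D28 and 1.33 ± 0.13 at D28WO. The D3 call was lost with median-ratio size factors, at 0.98, and under quantile normalization, at 0.93, and the D28 call under quantile normalization, at 0.99. The D14 estimate turned to -0.15 under quantile normalization and to -0.09 with size factors.

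In U251, IRF9 was 34.1, 36.3 and 34.0 TPM untreated and 102, 102 and 105 TPM at D3. At D14 it was 91.0, 89.02 and 91.3 TPM, and at D28 and D28WO it lay between 97.1 and 127 TPM. The treated libraries were thus all well above the untreated ones at every time, with log2 fold changes of 1.54 ± 0.07 at D3 (limma adjusted p = 5.64e-10), 1.35 ± 0.07 at D14 (adjusted p = 6.5e-09), 1.56 ± 0.07 at D28 and 1.72 ± 0.07 at D28WO. From D3 to D14 IRF9 changed by -0.19 ± 0.07 (adjusted p = 0.0511), a difference that missed the threshold although the 2 sets of libraries did not overlap. The D14 libraries were below all D28 and D28WO libraries, and IRF9 was higher than at D14 by 0.20 ± 0.07 at D28 (limma adjusted p = 0.0409) and by 0.37 ± 0.07 at D28WO (adjusted p = 0.000906), both inside the fold limit. Reads of IRF9 could be shared with the same-strand gene ENSG00000259529, which overlaps it over 5219 bases at a mean of 8.37 TPM in U251.

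The ratio of IRF1 to IRF9 within a U251 library was 3.90 to 4.26 untreated, 5.04 to 7.04 at D3 and 3.16 to 3.61 at D14, and these ranges did not overlap. In U87 it was 3.81 to 5.83 untreated, 6.81 to 6.82 at D3 and 3.29 to 4.84 at D14, and the Untreated and D14 ranges overlapped. Over the U251 ratios, in an exact two-sided permutation test over the libraries, D14 differed from D3 by -0.77 on the log2 scale (p = 0.1, adjusted p = 0.1 over 4 ratio tests), the smallest p that 3 libraries against 3 allow.

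IRF7, which amplifies type I interferon production once it is phosphorylated, changed in U87. It was 15.3, 13.8 and 10.6 TPM in untreated U87 libraries, 32.9 and 32.8 TPM at D3, and 22.5 and 12.1 TPM at D14. It was 34.1, 35.9 and 30.5 TPM at D28 and 41.7, 42.1 and 43.5 TPM at D28WO, and the D28WO libraries lay above all others. Its log2 fold change was 1.26 ± 0.21 at D3 (limma adjusted p = 0.0025), 0.31 ± 0.21 at D14 (adjusted p = 0.411; -0.11 without D14 replicate 2 and 0.74 without D14 replicate 3) and 1.62 ± 0.19 at D28WO (adjusted p = 4.78e-05), and the rise from D28 to D28WO missed the threshold (0.34 ± 0.19, adjusted p = 0.26). In U251 the IRF7 level lay between 0 and 3.03 TPM over the 15 libraries, 1 D28 library was listed at 0, and no comparison was called. Under quantile normalization its D28WO libraries were called higher than D28, at 1.31 (limma adjusted p = 0.0202), and than D14, at 1.30 (adjusted p = 0.0209). At these low levels the 95% interval of its D28 difference from Untreated was wide and ran from -1.23 to 0.61.

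IRF5, an activator downstream of Toll-like receptors, rose in U87 by about as much as IRF1 on the log2 scale, with a larger error, and did not pass the test in U251 until the withdrawal group. In U87 it was 2.02, 2.64 and 3.28 TPM untreated, 15.4 and 8.60 TPM at D3, 1.62 and 2.06 TPM at D14, 11.3, 7.41 and 7.38 TPM at D28, and 10.9, 14.7 and 15.1 TPM at D28WO. The libraries of D3, D28 and D28WO were all above those of Untreated and D14. The log2 fold change was 1.80 ± 0.29 at D3 (limma adjusted p = 0.0019), 1.40 ± 0.26 at D28 (adjusted p = 0.0031) and 2.00 ± 0.26 at D28WO (adjusted p = 9.94e-05). Under quantile normalization the call at D28 was lost, at 0.89 (adjusted p = 0.0519), as were those of IRF7 at D3 and D28, at 0.90 and 0.93.

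In U251, IRF5 lay between 24.6 and 36.8 TPM in the untreated, D3, D14 and D28 libraries, and none of these groups differed from Untreated past the threshold. At D28WO it was 47.8, 47.4 and 40.9 TPM, above every other library of the line. It passed the adjusted p there against D28, with a log2 difference of 0.63 ± 0.10 (limma adjusted p = 0.000468), and against Untreated, with 0.54 ± 0.10 (adjusted p = 0.00131), and did not reach the fold limit. The untreated level of IRF5 was 30.7 ± 1.8 TPM (SD, n = 3) in U251 and 2.64 ± 0.63 TPM (n = 3) in U87, and that of IRF7 was 1.37 ± 0.79 TPM in U251 and 13.2 ± 2.4 TPM in U87, so that the 2 genes stood in opposite order in the 2 lines.

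IRF2, the competitor of IRF1, moved less. In U87 it was 50.7, 40.9 and 37.3 TPM untreated and 79.8 and 67.5 TPM at D3, higher by 0.77 ± 0.16 on the log2 scale (limma adjusted p = 0.00792). It was 57.2 and 44.8 TPM at D14 (adjusted p = 0.393), and at D28 and D28WO it was higher than untreated by 0.73 ± 0.14 (adjusted p = 0.00405) and 0.59 ± 0.14 (adjusted p = 0.00558). In U251 it was 49.4 to 51.0 TPM untreated, 53.6 to 77.5 TPM at D3, 46.6 to 55.0 TPM at D14, 63.2 to 69.9 TPM at D28 and 80.7 to 83.2 TPM at D28WO. The D28WO libraries were above all others of U251, and IRF2 was higher there than at D28 by 0.31 ± 0.11 (adjusted p = 0.0442) and than Untreated by 0.71 ± 0.11 (adjusted p = 0.000229). IRF2 never reached the fold limit. The ratio of IRF1 to IRF2 went from 3.15 ± 0.46 (SD, n = 3) untreated to 6.13 ± 0.77 (n = 2) at D3 and 2.40 ± 0.08 (n = 2) at D14 in U87, and from 2.82 ± 0.05 to 8.79 ± 1.48 and 5.91 ± 0.52 (n = 3 each) in U251. Of the 3 co-repressors that bind IRF2 (IRF2BP1, IRF2BP2 and IRF2BPL), none was called in any comparison of either line. By the adjusted p alone 2 were higher in U251 at D28WO than in Untreated, beside 14.3% of all genes, and than at D14, beside 10.6%, and 1 than at D28, beside 10.3%. In U87 1 was higher at D28WO than in Untreated (28.6% of all genes), D28 (9.90%) and D14 (14.3%). Against Untreated 1 was lower in U87 at D28 (6.55%) and 1 in U251 at D3 (16.0%). Few genes are called over the whole table, so 0 of 3 is no sign of a difference from other genes.

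IRF3, which sensors activate by phosphorylation, was the second most abundant member in untreated cells and changed little. In U87 it was 103 to 109 TPM untreated, 131 and 175 TPM at D3, 119 and 131 TPM at D14, 118 to 133 TPM at D28 and 116 to 136 TPM at D28WO. All treated libraries lay above the untreated ones, and the adjusted p passed at D3 (0.51 ± 0.11, limma adjusted p = 0.0122) and at D28WO (0.28 ± 0.10, adjusted p = 0.0479) and not at D14 or D28. In U251 it lay between 85.5 and 174 TPM, every treated group overlapped Untreated, and no difference from Untreated passed the adjusted p. The D28WO libraries lay below the D28 libraries without overlap, a log2 difference of -0.41 ± 0.17 that missed the threshold (limma adjusted p = 0.0929). IRF3 overlaps the opposite-strand gene BCL2L12 over 734 bases.

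IRF4 and IRF8 were at or near 0 in both lines. IRF4 was at most 0.287 TPM in U87 and 0.562 TPM in U251, and IRF8 was at most 0.350 TPM in U87, where 12 of the 13 libraries listed it at 0, and 0.328 TPM in U251, where it was listed at 0 in the untreated and D28WO libraries. Both were below the filter and were not tested. Among 12 leukocyte markers, 11 were under 2 TPM in every U87 library and 8 in every U251 library, PTPRC, CD3D, CD3E and MS4A1 among the low ones in U87, and without CSF1R the list summed to 1.03 to 5.02 TPM in U87 and 2.91 to 9.78 TPM in U251. In U251 the marker CD14 rose from 0.191 to 1.26 TPM untreated to 3.11 to 5.75 TPM at D3, and was 1.87 to 2.31 TPM at D14, 2.40 to 4.30 TPM at D28 and 2.07 to 2.47 TPM at D28WO, called higher at each time. CSF1R was 11.2 to 59.99 TPM in U87, lowest at D28WO. Of the 6 glioma and astrocyte markers, SOX2 was at or near 0 in all U87 libraries, S100B was at most 3.39 TPM and GFAP was 2.33 to 19.1 TPM. VIM was 984 to 1459 TPM there, CD44 471 to 732 TPM and NES 19.7 to 46.5 TPM. In U87 the 6 markers summed to 1938 to 2162 TPM untreated, 1758 to 1795 TPM at D3, 1840 to 1929 TPM at D14, 1797 to 1942 TPM at D28 and 1491 to 1644 TPM at D28WO. In U251 the 6 markers summed to 3703 to 3775 TPM untreated, 1488 to 1825 TPM at D3, 2577 to 2971 TPM at D14, 1616 to 1835 TPM at D28 and 2108 to 2179 TPM at D28WO, and their part in the IRF values was not tested.

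**Figure D2:**
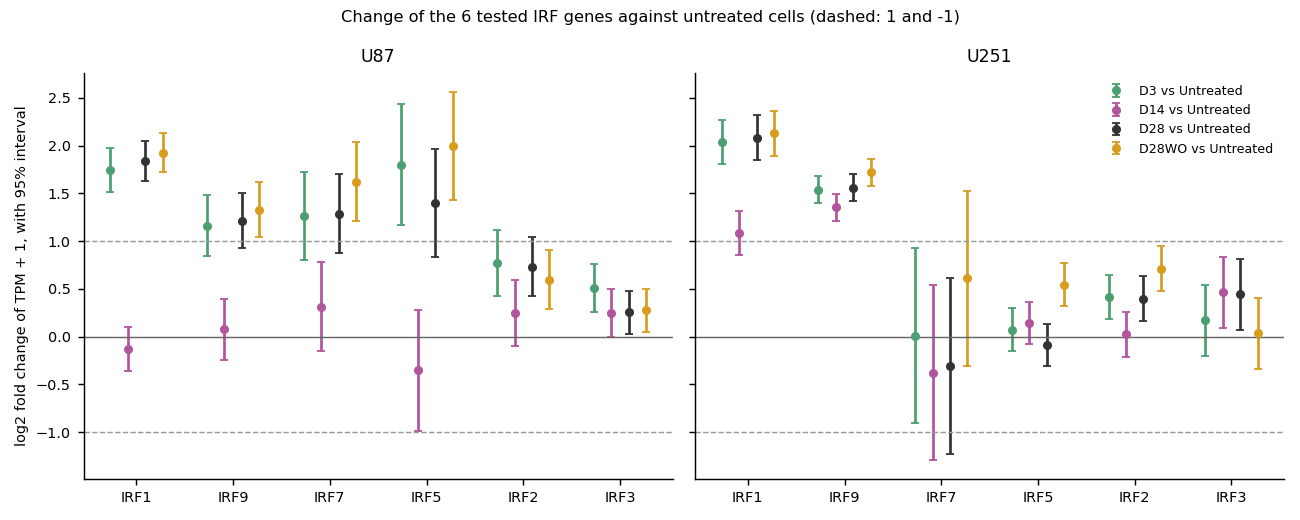
Log2 fold change of TPM + 1 against untreated cells (vertical axis) with its 95% interval for the 6 tested members (horizontal axis), with 1 colour a time. In U87 the D14 points lie between -0.35 (IRF5) and 0.31 (IRF7), with intervals that include 0 for all 6 genes, whereas in U251 IRF1 is at 1.08 and IRF9 at 1.35 at D14.

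Among treated groups, several members were called between D14 and the others in U87, and in U251 IRF1 alone, which was not called against D3. In U87, IRF1, IRF5 and IRF9 were called lower at D14 than at D3 (3 of 6, beside 2.05% of all genes), with log2 changes of -1.88, -2.15 and -1.09, and higher at D28 than at D14 (3 of 6, beside 1.78%). Without D14 replicate 2 the IRF9 call at D14 against D3 was lost, at -0.95, as was the IRF5 call at D28 against D14, at 1.64 (limma adjusted p = 0.0608), and with the 2 groups alone in the fit the IRF5 call at D14 against D3 was lost (adjusted p = 0.0906). IRF7 passed the adjusted p in both with changes just inside the fold limit, -0.95 ± 0.23 (limma adjusted p = 0.0394) and 0.97 ± 0.21 (adjusted p = 0.0236). Leaving out D14 replicate 2 or 3 moved the IRF7 estimates to between -1.37 and -0.53 and between 0.55 and 1.40. In U251 no member was called at D14 against D3, where 3.29% of all genes were called lower and 3.19% higher. Against D14, 1 member was called at D28 in U251, beside 4.23% of all genes higher. That was IRF1, at 1.00 ± 0.11, a call lost with median-ratio size factors, with array weights, and without D14 replicate 1, D14 replicate 3 or D28 replicate 3 (lowest value 0.92).

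At D28WO, by the labels 14 days without IFN-γ, no member was called in either direction against D28 in U87, where 3.11% of all genes were called higher and 2.42% lower, or in U251, where 1.12% were higher and 8.14% lower. The interval of the IRF1 difference was -0.12 to 0.29 in U87 and -0.19 to 0.28 in U251, and that of the IRF9 difference was -0.17 to 0.41 and 0.02 to 0.30. In both lines the libraries labelled as withdrawn had higher IRF1 than those labelled D14, the last time before withdrawal, by 2.06 ± 0.11 in U87 (limma adjusted p = 2.56e-07) and 1.04 ± 0.11 in U251 (adjusted p = 1.01e-05). In that comparison IRF1, IRF5, IRF7 and IRF9 were called higher in U87 (4 of 6, beside 6.30% of all genes) and IRF1 alone in U251 (1 of 6, beside 1.78%). The U87 call of IRF7 was lost without D14 replicate 3, at 0.89. The U251 call of IRF1 was lost without D28WO replicate 2, at 0.99, and under quantile normalization, at 0.97, where IRF7 was called instead, at 1.30 (limma adjusted p = 0.0209). The comparisons of D3, D14, D28 and D28WO with Untreated share the same untreated libraries. Of all genes, 3.39% in U87 and 5.38% in U251 were called lower at D28WO than at D14. IFNB1 in U251 differed by -0.85 ± 0.24 (limma adjusted p = 0.0168), which passed the test but not the fold limit. The groups were taken as labelled, and the labels were not tested here.

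**Figure D3:**
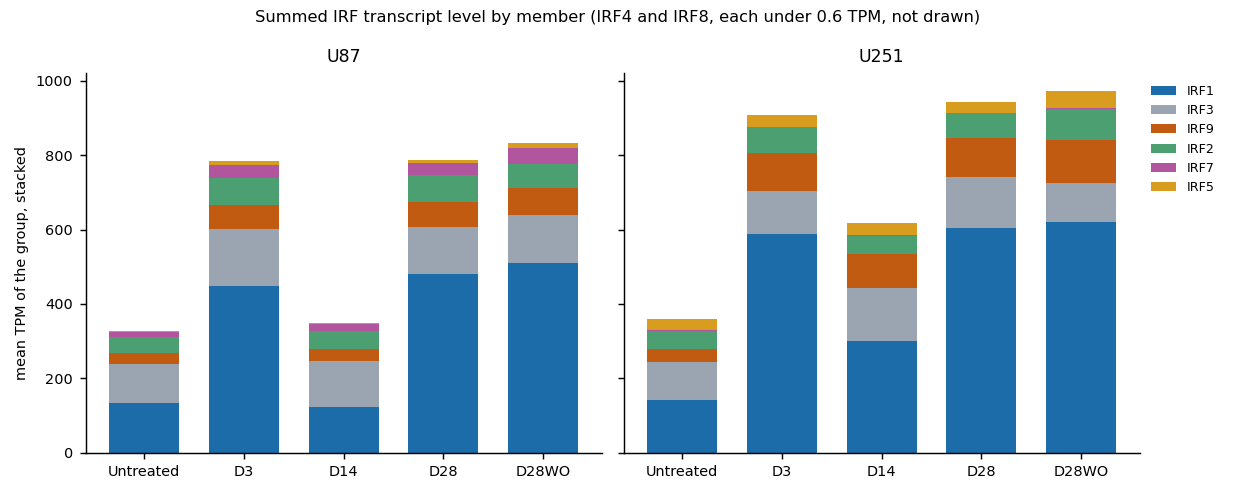
Mean TPM of the 6 expressed members (vertical axis, stacked) in each group (horizontal axis) of U87 and U251, with 1 colour a gene. The stack of U87 reaches 785 TPM at D3 and 348 TPM at D14, and that of U251 909 and 619 TPM, and most of the difference is the IRF1 segment.

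Summed over the 8 members, the family went from 327 ± 12 TPM (SD, n = 3) untreated to 785 ± 41 TPM (n = 2) at D3, 348 ± 20 TPM (n = 2) at D14 and 833 ± 39 TPM (n = 3) at D28WO in U87. In U251 it went from 361 ± 19 TPM to 909 ± 106, 619 ± 47 and 972 ± 42 TPM (n = 3 each). IRF1 made up 40.7% ± 1.2 of the untreated sum in U87 and 57.1% to 61.1% at D3, D28 and D28WO, but 34.9% ± 2.9 at D14, when IRF3 held 36.1% ± 4.6. In U251 it made up 39.2% ± 1.5 untreated, 63.8% to 64.4% at D3, D28 and D28WO and 48.5% ± 1.2 at D14. The share of IRF9 stayed between 8.39% and 8.92% on average in every U87 group and was highest at D14 in U251, at 14.7% ± 1.3 against 9.68% ± 0.78 untreated.

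The partners and the pathway upstream of the family were read from gene lists. In the interferon receptor and JAK-STAT chain, STAT2, a partner of IRF9, and the kinase gene JAK2 were called higher at D28 in both lines. Of the 9 genes listed, 2, 0, 3 and 3 were called higher in U87, in the order of the groups, beside 5.85%, 1.89%, 6.77% and 12.8% of all genes, and 3, 2, 3 and 3 in U251, beside 9.72%, 4.72%, 11.9% and 4.07%. By the adjusted p alone, 4, 2, 4 and 3 were higher in U251, beside 24.9%, 13.8%, 25.9% and 14.3% of all genes, and 4, 1, 3 and 2 were lower, beside 16.0%, 7.31%, 14.7% and 13.4%. STAT2 in U87 had log2 fold changes of 1.26 ± 0.08 at D3 (limma adjusted p = 1.61e-06), 0.50 ± 0.08 at D14 (adjusted p = 0.01) and 1.61 ± 0.07 at D28WO (adjusted p = 4.6e-08), and in U251 of 1.52, 1.02 and 1.70. JAK2 in U251 was 2.53 ± 0.19 higher at D3 and did not pass at D14 (0.56 ± 0.19, adjusted p = 0.0541). The mean ratio of IRF9 to STAT2 was 0.512 to 0.692 in the U87 groups and 0.684 to 0.869 in the U251 groups.

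Of 14 sensors, adaptors and kinases upstream of IRF3, IRF5 and IRF7, 13 were tested in U87 and 14 in U251. TLR3 and IFIH1, the genes of a receptor and a cytosolic helicase for double-stranded RNA, were called higher at D3, D28 and D28WO in both lines, and in U251 also at D14. TLR3 in U87 went from 8.06 to 9.97 TPM untreated to 40.7 and 47.1 TPM at D3 and to 11.7 and 13.5 TPM at D14. RIGI, another helicase, was called at all 4 times in U251, at 1.86 to 2.50, and STING1 at D28 in U87. Against Untreated 2, 0, 3 and 3 of these genes were called higher in U87, beside 5.85%, 1.89%, 6.77% and 12.8% of all genes, in the order of the groups. In U251 3 were called higher at each time, beside 9.72%, 4.72%, 11.9% and 4.07%. By the adjusted p alone 6, 4, 6 and 5 were higher in U251, and 3 were lower at D3 and 2 at each later time, beside the shares of all genes given above for that rule.

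BATF2, which can pair with IRF1, was among the 3 genes most like IRF1 in U87. There it went from 3.21 to 5.13 TPM untreated to 83.9 and 81.6 TPM at D3, 4.97 and 3.96 TPM at D14 and 80.2 to 94.7 TPM at D28 and D28WO. In U251 it went from 1.61 to 2.04 TPM to 56.6 to 75.1 TPM at D3, 20.8 to 29.7 TPM at D14 and 96.9 to 116 TPM at D28WO. In U251 it was 69.5 to 81.5 TPM at D28, below D28WO without overlap. The log2 fold change of BATF2 at D3 was 4.06 ± 0.15 in U87 (limma adjusted p = 2.99e-08) and 4.62 ± 0.14 in U251 (adjusted p = 1.96e-11). Of the 7 partner factors listed, 4 were tested in U87 and 5 in U251. Against Untreated 1, 0, 1 and 1 were called higher in U87, in the order of the groups, beside 5.85%, 1.89%, 6.77% and 12.8% of all genes. In U251 2, 1, 2 and 3 were called higher, beside 9.72%, 4.72%, 11.9% and 4.07%, and 1 lower at D3, beside 4.55%.

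Across the 13 U87 libraries the genes with the highest Pearson correlation with IRF1 on log2(TPM + 1) were APOL1, IDO1 and BATF2 (r = 0.993, 0.992 and 0.992), and across the 15 U251 libraries GBP4, TAP2 and GBP1 (r = 0.994, 0.993 and 0.993). Those most like IRF9 were CIITA, CTSO and IFI35 in U87 (r = 0.989, 0.988 and 0.986). The points of these correlations share their 5 groups, so that any gene that follows the treatment correlates, and 401 of 22917 genes had an r over 0.9 with IRF1 in U87 and 419 of 23666 in U251. Between members, the r of IRF1 with IRF9, IRF5, IRF7, IRF2 and IRF3 was 0.959, 0.942, 0.937, 0.841 and 0.536 in U87 and 0.930, 0.258, 0.107, 0.804 and 0.191 in U251.

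The target genes of IRF1 and of ISGF3 were read as 2 lists, which were not tested against each other. In U251 the IRF1 list had the lower median change from Untreated at each time. Of the 13 IRF1 targets, 11, 0, 11 and 11 were called higher against Untreated at D3, D14, D28 and D28WO in U87, with median log2 fold changes of 1.77, 0.16, 1.66 and 1.98, beside medians of 0.20, 0.15, 0.19 and 0.25 over all genes. In U251, 12, 9, 13 and 13 were called, with medians of 2.18, 1.39, 2.36 and 2.32 beside 0.13, 0.10, 0.16 and 0.02 over all genes. Of the 16 ISGF3 targets, 11, 3, 12 and 10 were called in U87, with medians of 1.80, 0.44, 1.98 and 1.47, and all 16 at each of the 4 times in U251, with medians of 2.95, 2.85, 3.00 and 3.33. The shares of all genes called higher were 5.85%, 1.89%, 6.77% and 12.8% in U87 and 9.72%, 4.72%, 11.9% and 4.07% in U251.

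From D3 to D14 in U251, 7 of 13 IRF1 targets were called lower, beside 3.29% of all genes, and all 13 were lower by the adjusted p alone (12.6% of all genes), with a median of -1.31. Of the 16 ISGF3 targets none was called in either direction and 5 were lower by the adjusted p alone, with a median of -0.13. CIITA, the master regulator of MHC class II genes, changed by -3.96 ± 0.14 (limma adjusted p = 9.35e-10) and IDO1, which degrades tryptophan, by -2.93 ± 0.11 (adjusted p = 9.35e-10), while OAS2 and RSAD2, both antiviral, changed by -0.14 ± 0.12 (adjusted p = 0.45) and -0.09 ± 0.17 (adjusted p = 0.775). GBP1, an antimicrobial GTPase, was 413 to 487 TPM at D3 and 141 to 156 TPM at D14, against 44.4 to 49.9 TPM untreated. IFIT1, which binds viral RNA, was 51.5 to 62.4 TPM at D3 and 59.7 to 62.3 TPM at D14, against 17.01 to 17.3 TPM untreated. The groups of GBP1 did not overlap and those of D3 and D14 overlapped for IFIT1.

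In U87 both lists fell from D3 to D14, 11 of 13 IRF1 targets and 7 of 16 ISGF3 targets being called lower beside 2.05% of all genes, with medians of -1.59 and -0.97. IDO1 was 81.3 and 85.9 TPM at D3 and listed at 0 in both D14 libraries, and CXCL10, a chemokine for T cells, was 6.59 and 10.4 TPM at D3 and listed at 0 in the untreated and D14 libraries. RSAD2 was 27.3 and 18.4 TPM at D3 and 0.234 and 1.06 TPM at D14. OAS2 was 1 of the 3 ISGF3 targets still called at D14, 1.53 ± 0.13 over Untreated (limma adjusted p = 0.000266), after a change of -2.47 ± 0.14 from D3. The genes of both lists were written down with earlier results of these libraries known, so their direction is not independent evidence.

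**Figure D4:**
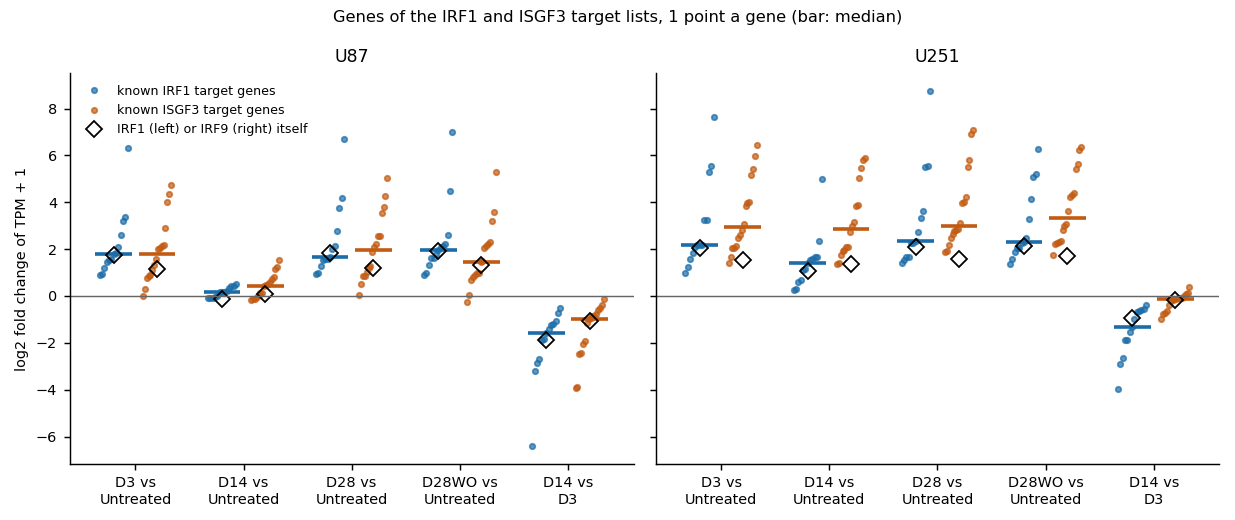
Log2 fold change of TPM + 1 (vertical axis) of each gene of the IRF1 target list (blue) and the ISGF3 target list (orange) in 5 comparisons (horizontal axis), with the list median as a bar and IRF1 or IRF9 itself as an open diamond. In U251 at D14 against D3 the IRF1 targets have a median of -1.31 and the ISGF3 targets one of -0.13, while IRF1 is at -0.95 and IRF9 at -0.19.

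Interferon genes themselves, the products of IRF3 and IRF7 activity in other settings, were read in both lines. In U87 none of the 8 ligand genes passed the filter, and IFNB1 was listed at 0 in all 13 libraries. In U251 IFNB1, the gene of interferon-β, was listed at 0 in the untreated libraries and was 2.21, 1.09 and 2.11 TPM at D3, 3.81, 3.47 and 3.24 TPM at D14, 6.26, 6.77 and 8.59 TPM at D28 and 2.05, 1.66 and 0.927 TPM at D28WO. It was thus above 0 in every treated U251 library, highest at D28, and lower at D28WO than at D28 without overlap, a log2 difference of -1.71 ± 0.24 (adjusted p = 0.000126). On the log2(TPM + 1) scale the difference from Untreated was 3.03 ± 0.24 at D28 (limma adjusted p = 2.48e-07) and 1.32 ± 0.24 at D28WO (adjusted p = 0.000827), and no fold is given against a level listed at 0.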

How the data were processed

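RNA of U87 and U251 cultures was made into TruSeq RNA libraries and read on an Illumina HiSeq. Per the labels and processing notes, the authors trimmed reads with Trim Galore, checked them with FastQC, aligned them to GRCh38 with STAR, counted them with featureCounts and used edgeR. The deposited tables hold TPM, 1 table a line, each library summing to 1000000, over 61471 genes. Read counts could not be recovered from these values, so the depth of each library is unknown here, although the methods state a minimum depth for all samples, and no interval from counting is given. Between 24223 and 30246 genes were above 0 in a library, and libraries of a group correlated at r = 0.959 to 0.974. Of the 30 samples, 28 were used, and 2 columns of the U87 table that share a name were not.

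Values were tested as log2(TPM + 1) with limma 3.58.1 (R 4.3.3; lmFit, eBayes with trend), for genes averaging 0.5 TPM or more, with all 5 groups of a line in 1 fit, and Benjamini-Hochberg adjustment over the genes of the line. A call needed an adjusted p under 0.05 and a log2 fold change beyond 1. The labels number the libraries as biological replicates, which the methods describe as cultures set up and treated separately. All 8 members were named. Of each list, at most 4 genes a line with the largest change at D28 were named, and STAT2 always, and some genes of the lists are not reported here. The 3 genes most like a member were taken by Pearson r. IFIT1, IRF1-AS1 and genes named beyond this were chosen after their values were seen. The members and the lists were chosen with earlier results of these data known. The fit was tested on simulated data. Tables were drawn up with Python 3.11.15, pandas 2.3.3 and matplotlib 3.10.9.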

Additional observations from a re-analysis of the deposited data

Results flagged for a closer look

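The IRF5 libraries of D28 lay above those of D14 in U87 and below them in U251, and the U251 difference missed the threshold. In U87 its log2 difference was 1.75, and all 3 D28 libraries lay above both D14 libraries, a call lost without D14 replicate 2 (1.64, limma adjusted p = 0.0608). In U251 it was -0.23, and all 3 D28 libraries lay below the 3 D14 libraries, with a limma adjusted p of 0.139. The difference between the lines was not tested, because their tables were normalized separately. No group held 4 or more libraries, so single libraries were not examined for standing apart.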

How the results depend on the processing

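Of 96 member differences, 32 were called. None of these 32 changed sign under any alternative, which their size beyond the fold limit made unlikely in advance. Quantile normalization lost 6 of the calls, median-ratio size factors 3, array weights 1 and the fit of the 2 groups alone 1, and leaving out a library lost others. Of 242 counts of called members recomputed under alternatives, 18 moved by over 1.5 times. By the adjusted p alone, the U251 counts were 4 higher at D28WO against Untreated (14.3% of all genes) and 2 lower at D14 against D3 (12.6%). They were 3 higher at D28 against D14 (11.3%), 2 higher at D28WO against D28 (10.3%) and 4 higher at D28WO against D14 (10.6%). Quantile normalization gave 2 members in U87 at D3 (beside 822 of 22918 genes), 1 at D28 (1052), and 1 in U251 at D28WO against D28 (1666 of 23667). Median-ratio size factors gave 1 in U251 at D14 (beside 1283 of 23667 genes) and 0 at D28 against D14 (1331), and array weights also gave 0 there (1479). Leaving out a library gave 0 to 1 member in U251 for each of D14 against D3, D28 against D14 and D28WO against D14. Quantile normalization also called IRF7 in place of IRF1 in U251 at D28WO against D14 (1.30 and 0.97). Without D14 replicate 3 the U87 IRF7 call at D28WO against D14 was lost (0.89). With the 2 groups alone in the fit, IRF5 in U87 at D14 against D3 had an adjusted p of 0.0906.

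The differences that changed sign were all uncalled. Quantile normalization gave log2 values of -0.15 for IRF9 at D14 in U87 and, in U251, -0.042 for IRF5 and -0.29 for IRF7 at D3, -0.047 for IRF2 at D14, 0.0055 for IRF3 and -0.0093 for IRF7 at D28 against D14, and -0.11 for IRF1 at D28WO against D28. Size factors gave -0.093 for IRF9 at D14 in U87, -0.0003, -0.020 and -0.021 for IRF3 in U87 at D28 against D14, D28WO against D28 and D28WO against D14, and, in U251, -0.028 for IRF5 and -0.048 for IRF7 at D3 and -0.061 for IRF2 at D14. A pseudocount of 0.1 gave -0.21 and -0.43 for IRF7 in U251 at D3 and at D28 against D14. Array weights gave -0.0068 for IRF3 in U87 at D28 against D14. Leaving out a library gave, in U251, -0.0094 to 0.13 for IRF1 at D28WO against D28, -0.029 to 0.089 for IRF2 at D14, -0.18 to 0.14 and -0.088 to 0.17 for IRF3 at D28 against D14 and at D28WO, -0.15 to 0.022 for IRF5 at D28, and -0.22 to 0.51, -0.60 to 0.13 and -0.26 to 0.48 for IRF7 at D28 against D14, D28 and D3. In U87 it gave -0.28 to 0.0096 for IRF1, -0.11 to 0.74 for IRF7 and -0.084 to 0.21 for IRF9 at D14, and -0.059 to 0.081, -0.037 to 0.10 and -0.026 to 0.090 for IRF3 at D28 against D14, D28WO against D14 and D28WO against D28. The cause was not tested.

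Samples that share a replicate number did not deviate together (mean r of 0.0041 over 23 pairs in U87 and 0.0009 over 30 in U251). With the replicate number as a block the number of members called was 4, 0, 4 and 4 in U87 and 2, 2, 2 and 2 in U251 against Untreated, in the order D3, D14, D28, D28WO. The block turned IRF3 in U87 at D28 against D14 to -0.014 and changed no call of a member. Over all genes it moved the calls by a factor of 0.767 (369 against 481 genes, U87 at D14) to 1.008. Fitting without the D14 libraries, chosen after seeing the data, changed no member call. U87 at D3 and D14 rests on 2 libraries each. Read depth is not given by TPM, and its part in the low values of IRF4, IRF8 and U251 IRF7 was not tested.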
